A study of Mus musculus with 18 samples.

Results

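Retinoic acid receptors and genes that retinoic acid regulates were followed in mouse kidneys after ischemia/reperfusion (I/R) injury. The group held 10 genes, listed by symbol, of the 45706 genes in the count files: the retinoic acid receptors *Rara*, *Rarb* and *Rarg*, the retinoid X receptors *Rxra*, *Rxrb* and *Rxrg*, and the retinoid genes *Crabp2*, *Cyp26b1*, *Dhrs3* and *Stra6*. All 10 were found, each once. Whole kidneys of 18 male C57BL/6 mice were sequenced, all of them with both renal pedicles closed for 22.5 min and then reperfused for 12 h. The *Cxcl12* cohort held 5 KO and 3 control kidneys, and the *Myc* cohort 5 of each. KO mice carried the floxed gene with both Pax8rtTA and TetOCre, so that doxycycline switched on Cre in tubule cells. Control mice, which were littermates, carried the same floxed gene and Pax8rtTA but no TetOCre, and were also given doxycycline. The drug was given for 14 days and washed out for 1 week, and the mice were 10 to 12 weeks old at injury. Excision was therefore limited to tubule cells while RNA came from the whole organ, in which fewer cells of a type and less RNA per cell cannot be told apart.

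Retinoic acid is made from vitamin A and acts in the nucleus, where a retinoic acid receptor (RAR) pairs with a retinoid X receptor (RXR) on DNA. The pair binds direct repeats of a short hexamer, and ligand exchanges corepressors for coactivators. Genes switched on in this way include *Rarb* itself, *Cyp26b1*, which degrades retinoic acid, *Dhrs3*, which turns retinal back into retinol, *Crabp2*, which carries retinoic acid to the receptors, and *Stra6*, the cell-surface importer of retinol. In the developing kidney the pathway drives ureteric bud branching through *Ret*.

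In GRCm38 the genes lie on 10 chromosomes and all are protein coding. The RAR genes are *Rara* (ENSMUSG00000037992, chr11:98927818-98974942), *Rarb* (ENSMUSG00000017491, chr14:16430839-16819156) and *Rarg* (ENSMUSG00000001288, chr15:102234938-102257517). The RXR genes are *Rxra* (ENSMUSG00000015846, chr2:27676440-27762957), *Rxrb* (ENSMUSG00000039656, chr17:34031812-34038399) and *Rxrg* (ENSMUSG00000015843, chr1:167598384-167639623). The others are *Crabp2* (ENSMUSG00000004885, chr3:87948666-87953376), *Cyp26b1* (ENSMUSG00000063415, chr6:84571414-84593908), *Dhrs3* (ENSMUSG00000066026, chr4:144892827-144928209) and *Stra6* (ENSMUSG00000032327, chr9:58063788-58153996).

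The response element of *Rarb* is shown because it is the only such repeat found near the start sites of the 10 genes. RefSeq windows from 250 bases before to 50 bases after a start site (GRCm38.p6) were at hand for 9 genes, 21 windows in all, and *Crabp2* had none. Both strands were searched for 2 hexamers in the same orientation, each AGGTCA or its variant AGTTCA or else GGGTCA or its variant GGTTCA, spaced by 5, 2 or 1 bases (DR5, DR2 and DR1). The *Rarb* window held a DR5 on the strand of the gene whose first base lies 53 bases before the start site. It is shown here 5′ to 3′ at chr14:16575506-16575535 on the minus strand, with the repeat and its spacer in capitals:
*Rarb* DR5: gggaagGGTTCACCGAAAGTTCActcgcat
In GENCODE vM21 these bases lie inside exon 1 and the 5′ UTR of 2 longer *Rarb* transcripts. A DR5 was found in 0.0974% of all 32851 windows, a DR2 in 0.268%, a DR1 in 0.222% and any of these in 0.588%. Windows of *Rara*, *Rarg*, *Rxra*, *Rxrg* and *Stra6* held single hexamers, as did 43.7% of all windows. These are matches of letters, and binding was not measured.

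The reads assigned to genes numbered from 12918220 to 29749500 per kidney. The unmapped share lay under 5% in 6 kidneys, namely *Cxcl12* KO 1 and 2, *Myc* KO 3 and 5, and *Myc* control 1 and 3. These were also the kidneys with the most reads on genes, from 22437067, against at most 18006784 in the others. No *Cxcl12* control was among them. *Myc* had a log2 fold change of -1.61 ± 0.12 (SE, n = 5 against 5, adjusted p = 8.8e-05) in *Myc* KO and *Cxcl12* one of -0.73 ± 0.15 (n = 5 against 3, adjusted p = 0.094) in *Cxcl12* KO kidneys, with no overlap between KO and control in either cohort. *Cxcl12* controls stood apart in some markers of tubule cells and of other cells, and these values are given beside the results of the same comparisons.

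Levels between genes were compared as RPKM, the reads of a gene scaled to its exon length and to library size, and each gene between kidneys as CPM, scaled to library size alone. *Rxra*, the main RXR of epithelia, had the highest mean level, 22.7 ± 3.2 RPKM (SD, n = 18). *Dhrs3* followed at 18.2 ± 5.1 RPKM and *Rxrb* at 10.6 ± 1.6 RPKM. The RARs lay lower, *Rara* at 7.08 ± 0.66, *Rarg* at 6.19 ± 1.13 and *Rarb* at 3.94 ± 1.23 RPKM. *Cyp26b1* had 3.79 ± 1.64 RPKM and *Stra6* 0.71 ± 0.40 RPKM. *Crabp2* (0.27 ± 0.19 RPKM, 0 to 27 reads per kidney) and *Rxrg* (0.18 ± 0.09 RPKM, 2 to 14 reads) were barely detected. The ranges of all neighbours in this order overlapped over the 18 kidneys. Within a kidney, *Dhrs3* lay above *Rxrb*, *Rxrb* above *Rara*, *Rarg* above *Rarb* and *Cyp26b1* above *Stra6* in 18 of 18 kidneys, whereas *Rarb* lay above *Cyp26b1* in 10 of 18 and *Crabp2* above *Rxrg* in 12 of 18. *Rxra* lay above *Dhrs3* in 17 of 18 kidneys. *Rara* was the steadiest gene, with 24.2 to 36.0 CPM over all kidneys, a 1.48-fold span, while *Cyp26b1* spanned 5.13-fold and *Stra6* 9.28-fold. The order of the group means was the same in *Cxcl12* KO, *Myc* KO and *Myc* control kidneys. In *Cxcl12* controls *Dhrs3* (27.2 ± 4.9 RPKM, n = 3) came before *Rxra* (25.6 ± 2.5 RPKM) through *Cxcl12* control 1 alone, where *Dhrs3* had 32.8 and *Rxra* 25.2 RPKM, and the neighbouring pairs *Rarb* and *Cyp26b1*, and *Crabp2* and *Rxrg*, also changed places.

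**Figure D1:**
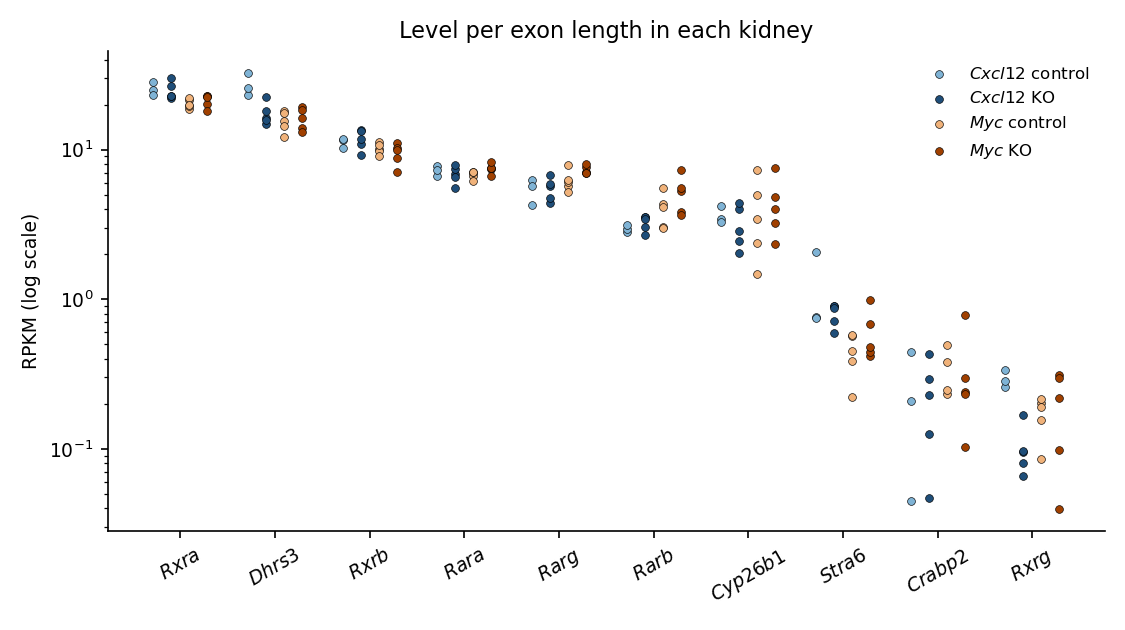
Level of each gene per exon length (RPKM, log scale) in the 18 kidneys, 1 point per kidney, coloured by group; the *Myc* control kidney with 0 *Crabp2* reads is not drawn. *Rxra* and *Dhrs3* lie at the top, *Crabp2* and *Rxrg* below 1 RPKM in every kidney, and *Dhrs3* is highest in the 3 *Cxcl12* control kidneys.

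*Rxra* made up between 64.6% and 71.0% of the summed RXR level, and *Rxrb* nearly all of the rest. *Rara* made up between 30.5% and 51.4% of the summed RAR level, *Rarg* between 31.0% and 41.5% and *Rarb* between 17.5% and 33.1%. All 3 RARs were thus present in every kidney. The summed RXR level was 2.39 ± 0.28 times the summed RAR level in *Cxcl12* control (SD, n = 3), 2.37 ± 0.32 times in *Cxcl12* KO, 1.83 ± 0.31 times in *Myc* control and 1.56 ± 0.28 times in *Myc* KO kidneys. The ratio ran from 1.15 in *Myc* KO 5 to 2.75 in *Cxcl12* KO 5. The *Cxcl12* cohort (2.01 to 2.75) and the *Myc* cohort (1.15 to 2.33) overlapped, and KO and control overlapped within each cohort. The ratio was not tested.

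**Figure D2:**
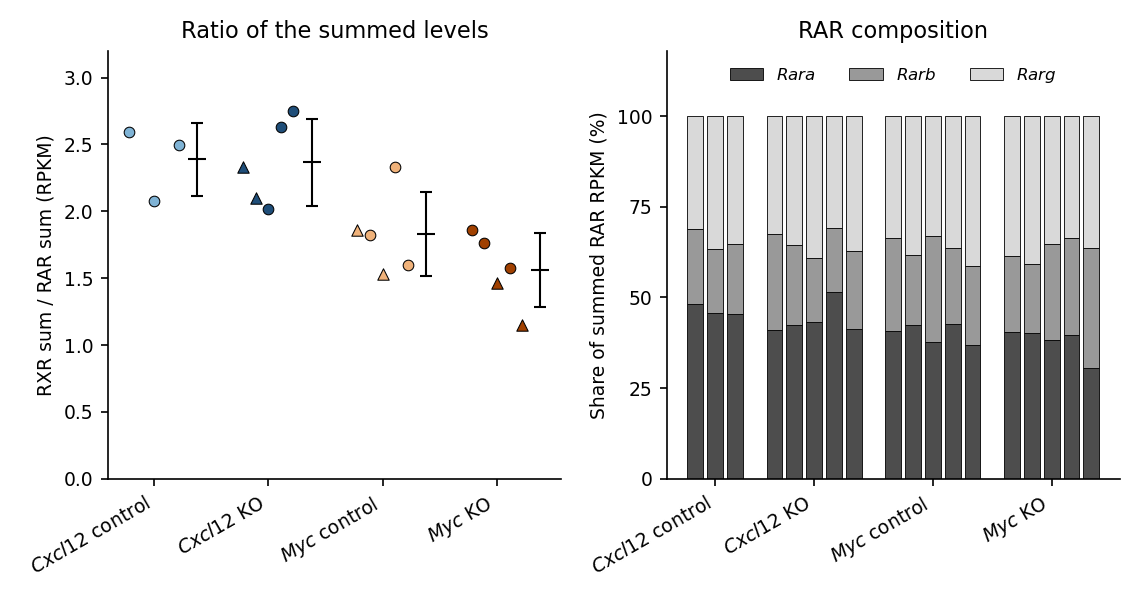
Left, summed RXR over summed RAR level (RPKM) in each kidney, with the group mean and SD as a bar; triangles are kidneys with under 5% unmapped reads. Right, shares of *Rara*, *Rarb* and *Rarg* in the summed RAR level of each kidney, in percent. The *Myc* KO kidneys lie between 1.15 and 1.86, and *Rarb* holds between 17.5% and 33.1% of the RAR level.

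The first comparison asked how the genes differed between *Cxcl12* KO and control kidneys after injury. No gene passed an adjusted p of 0.05 by edgeR's quasi-likelihood test. Of the 9 genes tested, 0 were called, beside 0% of all 15154 genes, while 2 of 9, *Dhrs3* and *Rxrg*, had an unadjusted p under 0.05, beside 13% of all genes. *Rxrg* passed the filter on low counts only through its control kidneys, so that its place in this count is not a result. DESeq2 called 348 genes and among the 9 *Dhrs3* alone. The median log2 fold change of the 9 was -0.09, beside 0.00083 over all genes. *Crabp2* did not pass the filter on low counts. The 5 abundant receptors differed little: *Rara* by -0.09 ± 0.12 (log2, SE), *Rarb* by 0.13 ± 0.12, *Rarg* by 0.02 ± 0.16, *Rxra* by -0.04 ± 0.12 and *Rxrb* by 0.06 ± 0.13, with adjusted p between 0.65 and 0.98. The 95% interval, which is normal and so narrower than the test implies, ran from -0.27 to 0.18 for *Rxra*. For *Rarb* it ran from -0.10 to 0.37. KO and control kidneys overlapped for all 5. The signs of the *Rarg* and *Rxra* differences turned when single kidneys were left out, and *Rxra* measured 0.04 without the 2 KO kidneys of low unmapped share.

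*Dhrs3*, the retinal reductase, had the smallest p of the 9. The CPM of the KO kidneys were 43.1, 47.5, 52.7, 65.8 and 46.0, and those of the controls 95.9, 68.0 and 75.3. All 5 KO kidneys lay below all 3 controls, although *Cxcl12* KO 4 came close to the lowest control. The log2 fold change was -0.65 ± 0.15 (SE, n = 5 against 3), 1.57-fold lower, with an adjusted p = 0.11 by edgeR, 0.020 by edgeR without the filter on low counts and 0.0066 by DESeq2. Without *Cxcl12* control 1, the highest control, it was -0.50 (adjusted p = 0.41). Without the 2 KO kidneys of low unmapped share it was -0.55 (adjusted p = 0.20).

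Some cell type markers also lay apart between these groups, and they were not set against *Dhrs3* kidney by kidney. The summed CPM of the 4 injured tubule markers (*Havcr1*, *Lcn2*, *Krt20* and *Sox9*) ran from 1611 to 2438 in *Cxcl12* controls and from 2587 to 3144 in the KO, and that of the 5 neutrophil markers from 18.2 to 25.7 and from 29.2 to 131. All 4 and all 5 had fold changes above 0, and 0 were called. The 5 skeletal muscle markers ran the other way, from 9.12 to 26.8 CPM in the controls and from 0.53 to 5.20 CPM in the KO. The 6 proximal tubule markers had overlapping sums, from 5431 to 6642 CPM in the controls and from 4759 to 5468 CPM in the KO, but all 6 had fold changes below 0 (2 of 6 at an unadjusted p under 0.05, 0 called), and *Lrp2*, the endocytic receptor megalin, did not overlap (750.3 to 1101 CPM against 1134 to 1207 CPM). Of the 6 collecting duct markers, 5 had fold changes below 0 and 4 an unadjusted p under 0.05, with a median of -0.67 and 0 called. Among these, *Hsd11b2*, the enzyme that inactivates glucocorticoids in this segment, had 17.7 to 37.3 CPM in the KO and 47.4 to 73.2 CPM in the controls, and *Scnn1g*, *Atp6v1b1* and *Slc4a1* did not overlap either. *Aqp2* and *Aqp3* did overlap. The 4 loop of Henle and distal tubule (median -0.24), 4 tested urothelium (-0.56) and 5 macrophage markers (-0.12) also all lay below 0. All 5 podocyte markers lay above 0 (median 0.11). None of these had an unadjusted p under 0.05. Of the fibroblast and pericyte markers 4 of 5 lay below 0, and of the tested adipocyte markers 3 of 4. Above it lay 4 of 5 endothelial markers and the 1 tested adrenal cortex marker. Of all genes, 13% had an unadjusted p under 0.05, and the share of all genes without overlap was not counted. The summed collecting duct markers overlapped, as did the sums of 10 of the 13 marker lists in all. The part of these cell types and of injury in the *Dhrs3* difference was not tested.

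*Stra6*, the retinol importer, had 4.18, 5.26, 5.29, 5.10 and 3.47 CPM in the KO and 12.0, 4.46 and 4.36 CPM in the control kidneys. A single kidney, *Cxcl12* control 1, was high, and the other 2 controls lay within the KO range. The log2 fold change of -0.58 ± 0.32 (adjusted p = 0.46) became 0.07 without that kidney. *Cyp26b1*, the retinoic acid hydroxylase, had a log2 fold change of -0.21 ± 0.23 (adjusted p = 0.73), from 11.0 to 23.6 CPM in the KO and from 17.5 to 22.5 CPM in the controls, which overlapped. *Rxrg*, a receptor known chiefly from muscle and brain, had 5, 4, 5, 4 and 3 reads in the KO and 14, 11 and 11 reads in the control kidneys. The 2 groups did not overlap, but, for the reason given above, a difference had to follow. Its log2 fold change was -1.57 ± 0.38 (adjusted p = 0.13), in the same direction as the skeletal muscle markers, whose part was not tested. None of the 5 muscle markers was at 0 in all kidneys of a group.

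**Figure D3:**
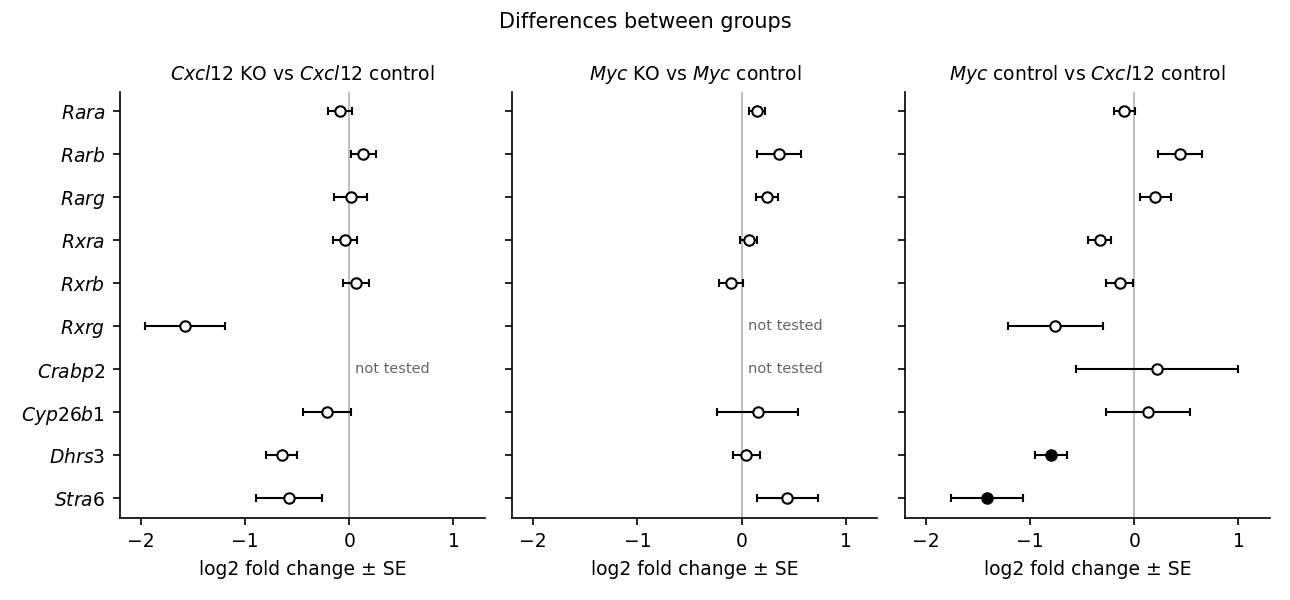
Log2 fold change with its standard error for each gene in *Cxcl12* KO against control, *Myc* KO against control and *Myc* control against *Cxcl12* control kidneys; filled points have an adjusted p under 0.05 (edgeR). Only *Dhrs3* and *Stra6* in the comparison of the control groups are filled, and *Dhrs3* lies at -0.65 in the *Cxcl12* KO and at 0.05 in the *Myc* KO.

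The second comparison set *Myc* KO against *Myc* control kidneys. Of the 8 genes tested, 0 were called, beside 1.65% of all 14936 genes, and 1 of 8 had an unadjusted p under 0.05, beside 21.9% of all genes. DESeq2, which called 1004 genes, called 0 of the 8. *Rxrg* and *Crabp2* did not pass the filter. The median log2 fold change was 0.15, beside -0.00083 over all genes, and 7 of the 8 lay above 0. The 3 RARs had the values 0.15 ± 0.08 for *Rara* (adjusted p = 0.27), 0.36 ± 0.21 for *Rarb* (0.34) and 0.24 ± 0.11 for *Rarg* (0.21). *Rarg* had the smallest p of the 8: its KO kidneys had 30.3, 32.6, 29.7, 29.7 and 34.2 CPM and its controls 24.3, 25.7, 26.6, 22.1 and 33.8 CPM. All KO kidneys lay above 4 of the 5 controls, and *Myc* control 5 lay within the KO range. *Rara* had 32.6, 33.0, 33.1, 36.0 and 29.3 CPM in the KO and 30.3, 29.0, 31.0, 26.8 and 30.9 CPM in the controls, where 4 of 5 KO kidneys lay above all controls and *Myc* KO 5 did not. *Rxra* differed by 0.07 ± 0.08 (95% interval -0.09 to 0.23) and *Rxrb* by -0.10 ± 0.11 (-0.32 to 0.11).

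*Dhrs3* had 47.3, 56.1, 40.8, 53.6 and 38.5 CPM in *Myc* KO and 53.1, 35.7, 45.8, 42.5 and 51.7 CPM in *Myc* control kidneys, which overlapped throughout. The difference was 0.05 ± 0.13 (log2, SE, adjusted p = 0.86), with a 95% interval from -0.21 to 0.30, and its sign turned when single kidneys were left out. *Stra6* had 2.45, 2.59, 3.98, 5.77 and 2.81 CPM in the KO and 3.31, 2.62, 3.35, 1.29 and 2.25 CPM in the controls. *Myc* KO 4 was the highest and *Myc* control 4 the lowest, and the other kidneys mixed (0.44 ± 0.29, adjusted p = 0.39). *Cyp26b1* differed by 0.15 ± 0.39 (adjusted p = 0.85), the widest error of the tested genes. *Rxrg* had 9, 4, 2, 11 and 13 reads in the KO and 12, 3, 13, 8 and 6 reads in the controls, and *Crabp2* 4, 7, 3, 5 and 27 reads in the KO and 8, 5, 15, 0 and 11 reads in the controls. These 2 genes were too low to compare, and *Myc* KO 5, with 27 *Crabp2* reads, stood alone. *Myc* control 4, with no read, allows up to 3 reads at its depth.

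The test of the difference between the KO effects, *Myc* minus *Cxcl12* over all 18 kidneys, called 0 of the 10 genes, beside 0.0692% of 15903 genes, 0.0314% higher and 0.0377% lower. An unadjusted p under 0.05 was reached by 3 of 10 (*Dhrs3*, *Rxrg* and *Stra6*), beside 11.4% of all genes, and 9 of 10 lay above 0. *Cxcl12* controls enter all of these differences. *Rxrg* did not pass the filter in the *Myc* cohort and passed it here only with the *Cxcl12* controls, so its place in this count is not a result. *Dhrs3* had the smallest p, with a difference of 0.69 ± 0.21 (log2, SE, adjusted p = 0.17). *Stra6* had 1.01 ± 0.46 (adjusted p = 0.41), *Rxrg* 1.67 ± 0.64 (0.30) and *Crabp2* 0.36 ± 1.02 (0.94). The differences of *Rara* (0.23 ± 0.13), *Rarb* (0.21 ± 0.28), *Rarg* (0.22 ± 0.19), *Rxra* (0.10 ± 0.14), *Rxrb* (-0.17 ± 0.18) and *Cyp26b1* (0.36 ± 0.53) were smaller. The *Dhrs3* effects of the 2 cohorts were thus not shown to differ.

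The groups whose levels differed by the test were the control groups. Against *Cxcl12* controls, 2 of the 10 genes were called in *Myc* controls, both lower, beside 1.99% of all 15903 genes, 1.12% higher and 0.868% lower. *Dhrs3* was 1.74-fold lower, with a log2 difference of -0.80 ± 0.16 (adjusted p = 0.014), and the 5 *Myc* controls (35.7 to 53.1 CPM) did not overlap the 3 *Cxcl12* controls (68.0 to 95.9 CPM). *Stra6* was 2.66-fold lower, with -1.41 ± 0.34 (adjusted p = 0.038), and 1.29 to 3.35 CPM did not overlap 4.36 to 12.0 CPM. Both rested in part on *Cxcl12* control 1. Without it, *Dhrs3* had -0.65 (adjusted p = 0.12) and *Stra6* -0.76 (adjusted p = 0.33). The *Stra6* call was also lost without *Cxcl12* control 2 or without *Myc* control 2, 3 or 5 (adjusted p from 0.055 to 0.080). Without the kidneys of low unmapped share, *Dhrs3* had -0.89 (adjusted p = 0.021) and *Stra6* -1.76 (adjusted p = 0.069), and with a term for that share -0.73 (0.028) and -1.51 (0.044). The same *Cxcl12* controls enter this comparison and that with the *Cxcl12* KO. *Dhrs3* thus had like means in *Cxcl12* KO (51.0 ± 9.0 CPM, SD, n = 5), *Myc* control (45.8 ± 7.1, n = 5) and *Myc* KO (47.3 ± 7.7, n = 5) kidneys, and 79.7 ± 14.5 CPM (n = 3) in *Cxcl12* controls. Line, batch and handling cannot be told apart between the cohorts. The summed injured tubule (2583 to 3382 CPM in *Myc* controls) and neutrophil markers (42.4 to 226 CPM) again lay above *Cxcl12* controls without overlap. Below them without overlap were the summed skeletal muscle (0.50 to 2.55 CPM) and adrenal cortex markers (2.34 to 3.75 against 4.06 to 7.13 CPM). *Havcr1* alone of the 4 injured tubule markers had a difference below 0 (206.2 to 900.5 against 548.3 to 667.4 CPM). All 6 proximal tubule markers had differences below 0, and 1 of them was called. All 5 urothelium markers had differences above 0, and 0 were called. Of the adrenal markers, 3 of 5 were at 0 in all *Cxcl12* controls and 1 of 5 in all *Myc* controls. *Star* made up most of the sum (1.91 to 3.21 against 3.76 to 6.69 CPM) and was called lower. The only other adrenal marker that passed the filter, *Mc2r*, had a difference above 0. The part of these markers was not tested.

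**Figure D4:**
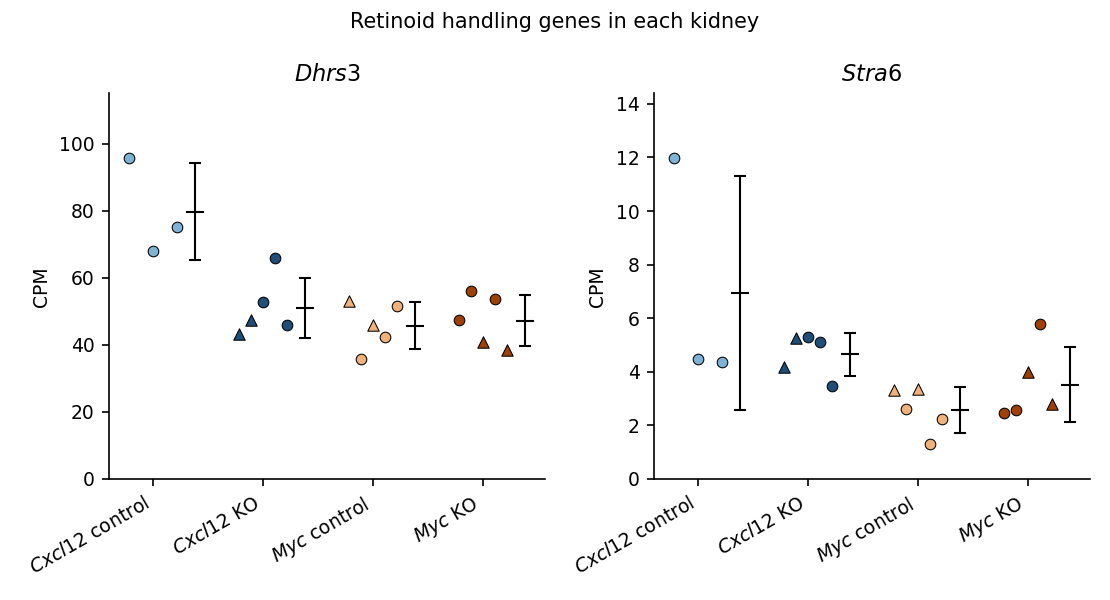
CPM of *Dhrs3* and *Stra6* in each kidney by group, with the mean and SD beside the points; triangles are kidneys with under 5% unmapped reads. For *Dhrs3*, the 3 *Cxcl12* controls (68.0 to 95.9 CPM) lie above the other 15 kidneys, and for *Stra6*, *Cxcl12* control 1 (12.0 CPM) stands alone.

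The receptors differed less between the control groups. *Rxra* had 116, 103, 107, 120 and 108 CPM in *Myc* and 138, 127 and 154 CPM in *Cxcl12* controls. These did not overlap, but the difference of -0.33 ± 0.11 was not called (adjusted p = 0.11). The reads of *Rxrg* per library size did not overlap either, but *Rxrg* passed the filter only with the *Cxcl12* controls, so this is not a result. *Rarb* had 0.44 ± 0.21 (adjusted p = 0.29), *Rarg* 0.20 ± 0.15, *Rara* -0.10 ± 0.10, *Rxrb* -0.14 ± 0.13, *Rxrg* -0.76 ± 0.45, *Crabp2* 0.22 ± 0.78 and *Cyp26b1* 0.13 ± 0.40, none of them called. The sign of the *Cyp26b1* difference turned without the kidneys of low unmapped share, to -0.58 (adjusted p = 0.41).

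*Rarb* and *Cyp26b1*, both inducible by retinoic acid, varied most among the 7 genes above 1 RPKM within the *Myc* cohort, and they varied together. *Rarb* had 20.1, 19.1, 27.9, 29.2 and 38.4 CPM in *Myc* KO and 22.9, 16.0, 29.0, 15.9 and 21.7 CPM in *Myc* control kidneys. *Cyp26b1* had 17.2, 12.6, 21.5, 25.7 and 40.3 CPM in the KO and 26.7, 7.85, 39.4, 12.7 and 18.5 CPM in the controls. *Myc* KO 5 and *Myc* control 3 were the highest kidneys of their groups for both genes. In the *Myc* controls, the 2 kidneys of low unmapped share were above the other 3 for both genes (*Rarb* 22.9 to 29.0 against 15.9 to 21.7 CPM, *Cyp26b1* 26.7 to 39.4 against 7.85 to 18.5 CPM). In *Myc* KO the ranges overlapped (*Rarb* 27.9 to 38.4 against 19.1 to 29.2 CPM, *Cyp26b1* 21.5 to 40.3 against 12.6 to 25.7 CPM). With a term for the unmapped share the *Myc* KO differences were 0.36 for *Rarb* (adjusted p = 0.15) and 0.25 for *Cyp26b1* (adjusted p = 0.59). Over the 18 kidneys, the deviations of log2 CPM from the group means had r = 0.83 for *Rarb* with *Cyp26b1* and r = 0.79 for *Rxra* with *Rxrb*. *Rarb* with *Rxrb* had r = -0.65. *Dhrs3* had r = 0.05 with *Cyp26b1* and -0.22 with *Rarb*. These are descriptions over kidneys that share a depth and an unmapped share by library. They pool the 4 groups and were not split by cohort. In *Cxcl12* KO 1 to 5, *Rarb* had 18.7, 18.8, 16.0, 14.25 and 18.1 CPM. *Cyp26b1* had 21.4, 15.4, 23.6, 13.1 and 11.0 CPM in the same kidneys, in another order. Exons of *Rarb* overlap those of *Top2b* on the other strand, and reads in that stretch cannot be told apart without strand.

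**Figure D5:**
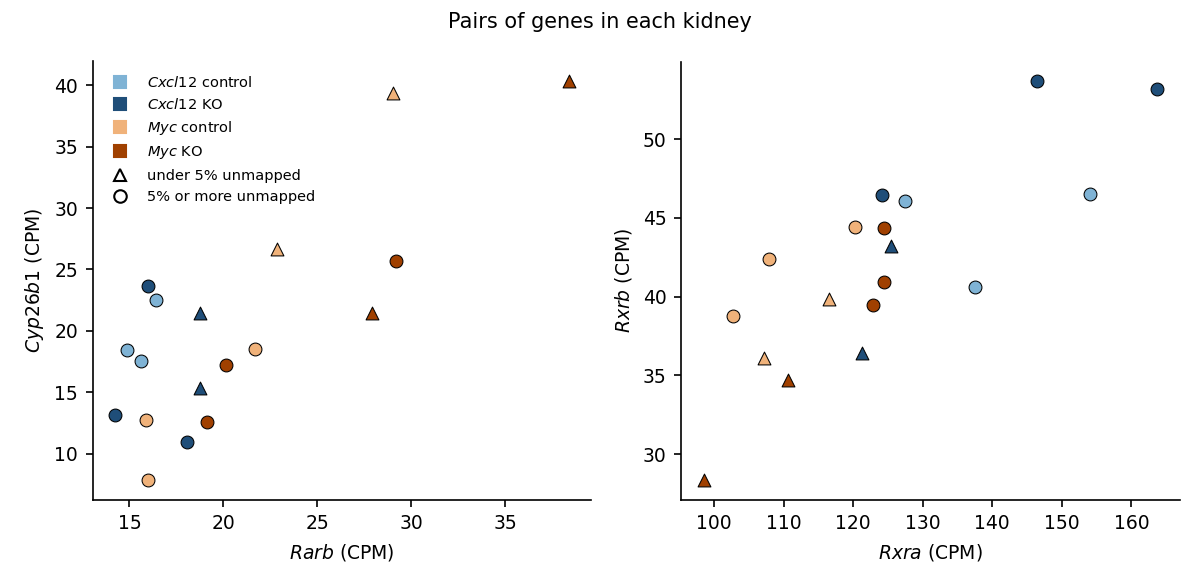
CPM of *Rarb* against *Cyp26b1* (left) and of *Rxra* against *Rxrb* (right), 1 point per kidney, coloured by group; triangles are kidneys with under 5% unmapped reads. *Cyp26b1* spans 7.85 to 40.3 CPM, and *Myc* KO 5, highest for *Rarb* and *Cyp26b1*, is lowest for *Rxra* and *Rxrb*.

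The genes whose deviations were most like those of *Dhrs3*, among 13763 genes over 18 kidneys, were *Ddc* (r = 0.89), *Plpp7* (r = 0.83) and *Mad1l1* (r = 0.82). For *Stra6* they were *Sf3b3*, *Fam98b* and *Ppm1l*, at r between 0.79 and 0.80. They are the top of a long list and a description only.

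The wider pathway was read through 5 lists, 53 different genes in all, a few of them in more than 1 list, and 0 of their genes were called in either KO comparison, beside 0% and 1.65% of all genes. Other settings did call some: DESeq2 called *Bco1* in *Cxcl12* KO (adjusted p = 0.026) and *Rdh11* (0.0056), *Nr4a2* (0.022) and *Kmt2d* (0.0035) in *Myc* KO, and edgeR without the filter on low counts called *Rarres2* in *Cxcl12* KO (0.024). Of 13 other genes induced by retinoic acid, 8 were tested in each cohort, with a median log2 fold change of -0.25 in *Cxcl12* KO and -0.07 in *Myc* KO. *Rarres2*, which encodes the chemoattractant chemerin, had the smallest p in *Cxcl12* KO (-1.70 ± 0.46, adjusted p = 0.17). Its KO kidneys had 3.16 to 5.93 CPM and its controls 34.0, 8.71 and 6.03 CPM, so that *Cxcl12* control 1 was again the highest, and without that kidney the value was -0.57. *Nrip1*, a ligand-dependent corepressor, had the smallest p in *Myc* KO (0.35 ± 0.13, adjusted p = 0.14). Of 8 retinoid carriers and importers, 5 and 6 were tested, with medians of -0.23 and -0.22, *Rbp4*, the serum retinol carrier (-0.80 ± 0.37, adjusted p = 0.39), and *Fabp5*, which carries retinoic acid to other receptors (0.32 ± 0.19, adjusted p = 0.33), leading by p.

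Of 12 enzymes of retinoic acid synthesis and clearance, 9 were tested, with medians of -0.07 in both. *Rdh11*, a retinal reductase like *Dhrs3*, had KO differences of opposite sign. Its CPM were 62.2, 52.7, 50.8, 59.4 and 49.1 in *Cxcl12* KO and 46.3, 43.5 and 39.8 in *Cxcl12* control kidneys. In *Myc* KO they were 41.6, 41.9, 47.5, 38.2 and 47.4, and in *Myc* controls 53.7, 52.2, 54.0, 63.3 and 54.1. Neither pair of groups overlapped. The control groups did not overlap either, with *Rdh11* higher in *Myc* than in *Cxcl12* controls (0.36 ± 0.10, adjusted p = 0.063, edgeR). In the fits of single cohorts the KO differences were not called (0.34 ± 0.10, adjusted p = 0.21, and -0.35 ± 0.08, adjusted p = 0.057). In the fit of all 18 kidneys the *Myc* KO difference was called (adjusted p = 0.024), and so was the difference between the KO effects (-0.70 ± 0.13, adjusted p = 0.047). *Bco1*, which cleaves beta-carotene to retinal, had 0.64 ± 0.17 (adjusted p = 0.16) in *Cxcl12* KO and was 1.78-fold higher in *Myc* than in *Cxcl12* controls (0.83 ± 0.19, adjusted p = 0.027). The *Rdh11* call on the difference between the KO effects was lost when any one of 13 of the 18 kidneys was left out (adjusted p from 0.051 to 0.14). It was also lost with limma voom (0.053), without the kidneys of low unmapped share (0.054), with the counts of either strand (0.062 and 0.064), without the filter (0.063) and with a replicate block (0.20), and kept with DESeq2 (0.00042) and with a term for the unmapped share (0.023). The *Bco1* call was lost without *Cxcl12* control 1, *Cxcl12* control 2 or *Myc* control 3 (0.055 to 0.16) and without the kidneys of low unmapped share (0.077).

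Of 13 nuclear receptors that pair with RXR, 12 were tested, with medians of -0.17 and -0.10. *Thra*, a thyroid hormone receptor, led by p in *Cxcl12* KO (-0.27 ± 0.11, adjusted p = 0.33) and *Nr4a2*, an immediate early gene, in *Myc* KO (0.86 ± 0.24, adjusted p = 0.093). All 12 receptor coregulators were tested. Their median was 0.01 in *Cxcl12* KO, where *Tbl1xr1* of the corepressor complex led (0.32 ± 0.18, adjusted p = 0.48). In *Myc* KO it was 0.22, with 11 of 12 above 0 and 6 of 12 at an unadjusted p under 0.05, beside 21.9% of all genes. In the same comparison the 5 podocyte markers (median 0.34) and the 5 endothelial markers (median 0.24) all lay above 0, with 2 of 5 of each at an unadjusted p under 0.05 and 0 called. So did all 5 neutrophil (median 0.65), the 4 tested adipocyte (0.47) and the 4 loop of Henle and distal tubule markers (0.14). The 1 adrenal cortex and the 1 skeletal muscle marker tested did too, and 0 of these had an unadjusted p under 0.05. Each other list had markers below 0, from 1 of 6 (proximal tubule) to 4 of 5 (urothelium). The summed levels of all 13 marker lists overlapped between KO and control. The part of these cell types in the coregulator values and in the RAR values above was not tested. *Kmt2d*, a histone methyltransferase that acts as a coactivator, came nearest to the threshold (0.44 ± 0.10, adjusted p = 0.05003, not under 0.05), with all 5 KO kidneys (151 CPM and more) above all controls.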

How the data were processed

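RNA of 18 whole kidneys was sequenced. The authors trimmed the reads with Trimmomatic 0.32, aligned them with STAR 2.4.0 to GRCm38 and deposited raw read counts per gene, not normalized; the annotation release is not given in the sources used here. The strand-ignoring counts were used as deposited, since each strand's column held about the same share. Symbols, positions and exon lengths came from GENCODE vM21 (45143 of 45706 IDs matched). Genes of low count were removed per cohort by filterByExpr and libraries scaled by TMM, and edgeR 4.0.16 (R 4.3.3) gave quasi-likelihood tests, adjusted by Benjamini-Hochberg over all genes; the difference between KO effects and the control groups were fitted over all 18 kidneys. The standard error was the log2 fold change divided by the square root of F, and 95% intervals are normal. Such intervals are narrower than the quasi-likelihood test implies. That of *Rara* in *Myc* KO ran from 0.0011 to 0.30, although the test gave an unadjusted p = 0.071. CPM and RPKM are TMM-scaled. Deviations were taken on log2 CPM (prior count 2) over genes of a mean CPM of at least 1. Alternatives used limma 3.58.1 and DESeq2 1.42.0. Scripts were tested on simulated data. Python 3.11.15, pandas 2.3.3 and matplotlib 3.10.9 made tables and figures.

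The genes, the 5 pathway lists and the 13 marker lists were chosen with earlier results of these data known. Named were all 10 genes, the deleted genes, from each pathway list the called genes or else the gene of smallest p in each KO comparison, and the 3 genes most like each called gene. Nothing in the labels says that a replicate number marks a shared litter or day; counts of kidneys within a group differed by more than sampling noise (chi-square per degree of freedom of at least 6.31), and each kidney was 1 sample. The 5% limit on unmapped reads was set after the shares had been seen, and no batch is named in the labels. The paper reports an adjustment for batch effects with ComBat but does not name the batches. The main tests here used the raw counts and held no batch term.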

Additional observations from a re-analysis of the deposited data

Results flagged for a closer look

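*Crabp2* in *Myc* KO 5 lay far from the other 4 kidneys of its group, at 1.04 CPM (27 reads) against 0.14 to 0.39 CPM; 30 groups were examined in this way, and chance marks about 1 in 20. The *Rdh11* KO effects of the cohorts differed by -0.70 on the log2 scale (adjusted p = 0.047, edgeR over 18 kidneys). This call was lost when any one of 13 of the 18 kidneys was left out, and under several other settings given above. The KO effects on *Myc* differed by -1.83 (adjusted p = 0.00011), where *Myc* is the deleted gene of the *Myc* cohort.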

How the results depend on the processing

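The counts of called genes depended on the settings, and except where a setting's own construction (fewer kidneys or other genes) shows it, the cause was not tested. In the *Cxcl12* cohort, 0 genes became 214 without a filter, 348 with DESeq2, 9 with the column of one strand, 123 with a term for the unmapped share, 80 without the kidneys of low unmapped share, 25 in a fit of all 18 kidneys, and 0 to 15 with 1 kidney left out. In the *Myc* cohort, 246 became 1004 with DESeq2, 954 with the term, 8 without those kidneys, 683 in the fit of all kidneys and 21 to 877 with 1 kidney left out. The 11 genes whose KO effects differed became 284 with DESeq2, 3 with limma voom, 4 and 7 with the columns of either strand, 133 with the term, 44 without those kidneys and 1 to 75 with 1 kidney left out. The 316 genes of the control comparison became 777 with DESeq2 and 49 to 611 with 1 kidney left out, 49 without *Cxcl12* control 1.

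The deviations of same-numbered KO and control kidneys had r between -0.03 and 0.14 in the *Cxcl12* and between -0.16 and 0.38 in the *Myc* cohort. Those of differently numbered kidneys ran from -0.16 to 0.21 and from -0.53 to 0.46, and held the range of the same-numbered ones. Such values cannot decide whether equal numbers mark a shared litter or day. A replicate block left 18 called genes in the *Myc* cohort, 0 in the *Cxcl12* cohort and 1 for the difference between the KO effects; the block could not be fitted for the control groups. Under the block *Rxrb* had -0.085 and *Cyp26b1* 0.033 in the *Cxcl12* KO, and *Crabp2* -0.27 for the difference.

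Signs of small differences turned. In the *Cxcl12* KO, *Rarg* had -0.070 with the column of one strand, and *Rxra* 0.044 with the term for the unmapped share and 0.038 without the kidneys of low share. Between the control groups, *Crabp2* had -0.16 and *Cyp26b1* -0.31 with the term, and *Cyp26b1* -0.58 without those kidneys. Leaving out 1 kidney gave, in the *Cxcl12* KO, -0.13 to 0.13 for *Rarg*, -0.12 to 0.030 for *Rxra* and -0.83 to 0.074 for *Stra6*, in the *Myc* KO, -0.14 to 0.51 for *Cyp26b1* and -0.030 to 0.11 for *Dhrs3*, between the controls, -0.24 to 1.08 for *Crabp2* and -0.23 to 0.33 for *Cyp26b1*, and -0.50 to 0.82 for *Crabp2* in the difference of effects. The *Stra6* difference between controls was not called with limma voom (adjusted p = 0.071) or with the column of one strand (0.062). *Crabp2* and *Rxrg* had at most 27 reads in a kidney, and differences in them were not measurable at this depth. Intervals rest on 3 to 5 kidneys a group.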
